A study of Mus musculus with 21 samples.

Results

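The smooth muscle contractile genes followed here are 10 genes, picked by symbol and read from every library: Acta2, Actg2, Tagln, Myh11, Cnn1, Tpm1, Tpm2, Myl9, Des and Lmod1. They are 10 of the 23204 gene symbols in the count tables, and 9 of them were among the 11669 genes with enough counts to be tested; Cnn1 was not. The libraries came from a mouse study of lung fibrosis that set a reversible model, bleomycin (BLM), beside a progressive model, crystalline silica (SiO2), and followed lung fibroblasts through its onset, course and end. All 21 libraries were from female C57BL/6 mice that carry the Col1a2-GFP transgene, in which the promoter of the collagen gene Col1a2 drives green fluorescent protein. There were 3 libraries labelled untreated, with no saline group beside them, and 3 libraries each at days 7, 14 and 63 after a single oropharyngeal dose of BLM (2 mg/kg) or of SiO2 (400 mg/kg). The cells of all 7 groups were depleted of CD45, CD31, EpCAM, CD146 and Ter119 positive cells, were negative for propidium iodide, and were sorted for GFP, so that a cell had to have an active Col1a2 promoter to be counted. The labels do not say whether the 3 libraries of a group came from separate mice or from pools of mice, so the p-values measure the spread between these libraries, which may be technical.

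In smooth muscle, filaments of smooth muscle actin (Acta2, Actg2) slide along filaments of smooth muscle myosin, whose heavy chain is Myh11 and whose regulatory light chain is Myl9. Tropomyosins (Tpm1, Tpm2), calponin (Cnn1) and transgelin (Tagln) lie along the actin filament, leiomodin (Lmod1) starts new actin filaments, and desmin (Des) forms the intermediate filaments of muscle cells. Many of these genes are switched on by serum response factor (SRF) and its partners of the myocardin family, which act at a DNA motif called the CArG box. Fibroblasts of injured lung that gain smooth muscle actin are known as myofibroblasts.

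In the mouse genome build GRCm38 (mm10), the GENCODE vM21 annotation places Acta2 at chr19:34241090-34255590 and Tpm1 at chr9:67022590-67049406, both on the minus strand, and Myl9 at chr2:156775420-156781658 on the plus strand. Actg2 (chr6:83512905-83536265), Tagln (chr9:45929619-45936058), Myh11 (chr16:14194535-14291372) and Tpm2 (chr4:43514711-43523765) are on the minus strand, and Cnn1 (chr9:22099216-22109630), Des (chr1:75360329-75368579) and Lmod1 (chr1:135324807-135368065) on the plus strand. RefSeq promoter windows of the same assembly were at hand for 7 of the 10 genes, and the 250 bases before each start were searched on both strands for the CArG box, a motif that is its own reverse complement. A match with at most 1 letter off was found in 4 of the 7, Acta2, Tpm1, Myl9 and Lmod1, and such a match stood in 18.6% of all 32851 windows of this length; an exact box stood in 1.47% of them. RefSeq's start lies downstream of the one in GENCODE for most of these genes, so that 217 of the 250 bases of the Acta2 window, 193 of those of Tpm1, 44 of those of Myl9 and 6 of those of Lmod1 fall in an exon that GENCODE gives to the gene. The stretches printed here belong to an actin, a tropomyosin and a myosin light chain that changed in the tests below. They are RefSeq sequence, 5′ to 3′ on the strand of the gene, and capitals mark the CArG matches. The Acta2 matches begin 84 and 34 bases before the RefSeq start, both inside the GENCODE exon, and are shown with 10 bases on each side (chr19:34255438-34255467 and chr19:34255388-34255417, minus strand). The Tpm1 matches begin 221 and 80 bases before the start, the second inside a GENCODE exon, and are shown in the same way (chr9:67049415-67049444 and chr9:67049274-67049303, minus strand). The Myl9 matches begin 161 and 99 bases before the start, the first of them exact, and both lie outside the gene. The 206 bases up to the GENCODE exon are shown (chr2:156775214-156775419, plus strand). A match describes the letters and no more.
Acta2, first match: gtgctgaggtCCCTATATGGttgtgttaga
Acta2, second match: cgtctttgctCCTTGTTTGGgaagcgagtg
Tpm1, first match: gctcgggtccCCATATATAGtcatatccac
Tpm1, second match: acaagcttttCCAAAAAAGTattggctgtc
Myl9: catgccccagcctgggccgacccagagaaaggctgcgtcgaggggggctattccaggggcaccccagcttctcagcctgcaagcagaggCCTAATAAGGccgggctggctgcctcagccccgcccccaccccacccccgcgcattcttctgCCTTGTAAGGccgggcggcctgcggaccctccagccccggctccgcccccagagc

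Each library held between 2080636 and 4477283 counts (median 3774431). Levels below are in CPM, the usual count scaled to library size, here a size adjusted by the trimmed mean of M-values (TMM); they come from 3′ tags, are not divided by gene length, and are compared between groups for 1 gene, never between genes. The 6 fibroblast markers chosen were all tested and summed to 16483 to 30301 CPM per library. Of the genes behind the depleted surface markers, Ptprc, Pecam1, Epcam and Mcam summed to at most 2.01 CPM in any library. Mcam, the CD146 gene that pericytes and vascular smooth muscle carry, had no count in the untreated, SiO2 day 14 and BLM day 63 groups. In each of the other groups Mcam had 3 to 9 counts. In 1 library, BLM day 7 replicate 1, 8 of the 9 tested members lay below their group mean (median log2 deviation -0.59). In SiO2 day 7 replicate 1, 8 of the 9 lay above it (median log2 deviation 0.43).

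**Figure D1:**
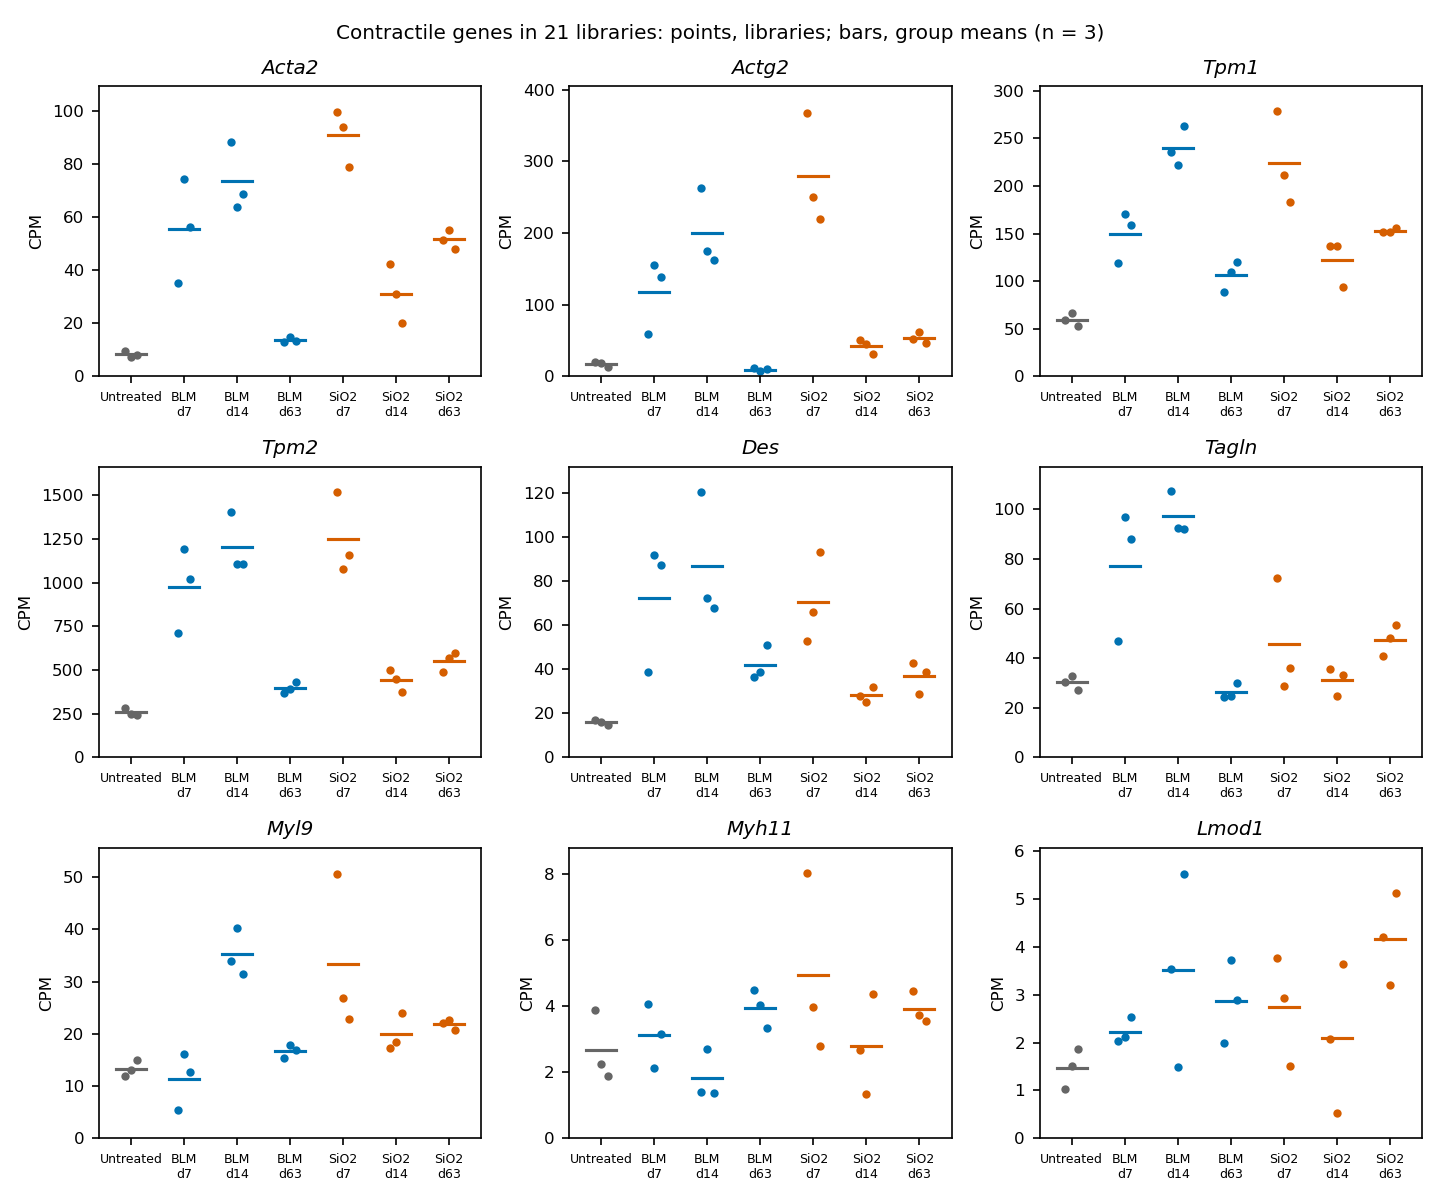
Level of the 9 tested genes in every library, in TMM-scaled CPM on linear axes that start at 0, with 1 panel per gene; points are libraries and bars are group means (n = 3). Acta2 and Actg2 stand highest at SiO2 day 7 and BLM day 14, and at day 63 they are higher in SiO2 than in BLM.

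By group mean, the smooth muscle actin transcripts were highest in SiO2 at day 7 and in BLM at day 14, and at day 63 the 2 models stood apart. Acta2, which encodes the alpha smooth muscle actin used to recognise myofibroblasts, was measured at 9.58, 7.28 and 7.96 CPM in the 3 untreated libraries. After BLM it was at 35.1, 74.5 and 56.4 CPM on day 7, 88.3, 63.6 and 68.8 CPM on day 14 and 12.9, 14.9 and 13.3 CPM on day 63. After SiO2 it was at 99.6, 93.8 and 79.0 CPM on day 7, 42.2, 30.9 and 20.2 CPM on day 14 and 51.5, 55.1 and 48.1 CPM on day 63. No treated library overlapped the untreated ones, and the BLM day 63 libraries came closest to them. The log2 fold change against untreated was 2.73 ± 0.26 at BLM day 7 and 3.14 ± 0.25 at BLM day 14, and at SiO2 it was 3.44 ± 0.25 on day 7, 1.88 ± 0.27 on day 14 and 2.63 ± 0.25 on day 63 (edgeR quasi-likelihood test, adjusted p from 1.30e-12 to 3.03e-06). At BLM day 63 it was 0.72 ± 0.29 and was not called (adjusted p = 0.119), although it was called when the groups of that comparison were fitted alone (adjusted p = 0.0361) and when no low-count filter was used (adjusted p = 0.0166). In order of the group means, SiO2 day 7 (90.8 ± 10.6 CPM, SD, n = 3), BLM day 14, BLM day 7 and SiO2 day 63 (51.6 ± 3.52 CPM) each overlapped the next, while SiO2 day 63, SiO2 day 14, BLM day 63 and untreated (8.28 ± 1.18 CPM) did not overlap their neighbours. From BLM day 7 to day 14 Acta2 was not called (log2 fold change 0.40 ± 0.20, adjusted p = 0.219 by the same test). In such bulk samples, fewer cells that carry a transcript and less of it per cell cannot be told apart.

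Actg2, the gamma smooth muscle actin of gut and other visceral muscle, rose at the same times as Acta2, and its BLM day 63 libraries lay below the untreated ones, a difference that was not called. Its levels were 19.9, 18.6 and 13.6 CPM in untreated libraries. They were 58.6, 155 and 138 CPM at BLM day 7, 263, 175 and 163 CPM at BLM day 14 and 11.4, 7.46 and 9.56 CPM at BLM day 63. In SiO2 they were 368, 249.999 and 219 CPM at day 7, 50.2, 44.5 and 31.6 CPM at day 14 and 52.6, 61.8 and 47.0 CPM at day 63. Every library of the other 5 treated groups lay above the untreated ones. Against untreated, the log2 fold change was 3.97 ± 0.28 at SiO2 day 7 (adjusted p = 7.01e-13), the largest rise of any of the 9 tested members, and 3.48 ± 0.28 at BLM day 14 (adjusted p = 1.70e-11). It was 1.23 ± 0.30 at SiO2 day 14 (adjusted p = 0.00229) and 1.59 ± 0.29 at SiO2 day 63 (adjusted p = 7.34e-05). At BLM day 63 it was -0.90 ± 0.36 and was not called (adjusted p = 0.104); with the groups fitted alone it was called lower (adjusted p = 0.0081), and without the low-count filter too (adjusted p = 0.000224).

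The tropomyosins Tpm1 and Tpm2, which wind along the actin filament and steer its contact with myosin, were higher than untreated in all 6 treated groups. Tpm2 was at 283, 249.7 and 241 CPM in untreated libraries. It was at 712, 1190.3 and 1018 CPM, 1404, 1104 and 1107 CPM and 369, 393 and 432 CPM on days 7, 14 and 63 of BLM. It was at 1518, 1080.0 and 1155 CPM, 502, 449 and 375 CPM and 490.4, 568 and 594 CPM on the same days of SiO2. The untreated libraries lay below every treated library. The log2 fold changes of Tpm2 ran from 0.62 ± 0.15 at BLM day 63 (adjusted p = 0.00487) to 2.28 ± 0.15 at SiO2 day 7 (adjusted p = 3.76e-13).

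Tpm1 was at 59.3, 66.8 and 52.4 CPM in untreated libraries. In BLM it was at 119, 171 and 159 CPM, 236, 222 and 263 CPM and 88.6, 109.9 and 119.9 CPM at the 3 times. In SiO2 it was at 279, 211 and 183 CPM, 136, 137 and 93.8 CPM and 151, 151 and 156 CPM. Here too the untreated libraries were the lowest of all, and BLM day 14 and SiO2 day 7 overlapped at the top. The log2 fold change ranged from 0.82 ± 0.16 at BLM day 63 (adjusted p = 0.000744) to 2.00 ± 0.16 at BLM day 14 (adjusted p = 2.47e-11).

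Des, the intermediate filament protein of muscle, was called higher than untreated in all 6 treated groups, day 63 of BLM included. It was at 17.1, 16.1 and 14.5 CPM in untreated libraries. In BLM it was at 38.6, 91.9 and 87.5 CPM, 120.4, 72.6 and 68.0 CPM and 36.6, 38.7 and 50.9 CPM at days 7, 14 and 63. In SiO2 it was at 52.9, 65.9 and 93.2 CPM, 27.9, 25.05 and 32.1 CPM and 42.8, 28.8 and 38.7 CPM. The day 63 libraries of the models overlapped, and all lay above the untreated ones. The log2 fold change against untreated at day 63 was 1.39 ± 0.28 in BLM (adjusted p = 0.000910) and 1.20 ± 0.28 in SiO2 (adjusted p = 0.00158), and between the models it was -0.20 ± 0.25 (adjusted p = 0.679). The weakest call, 0.82 ± 0.29 at SiO2 day 14 (adjusted p = 0.0383), was lost with DESeq2 (0.0747), limma-voom (0.085) and upper quartile scaling (0.0612), and when any library of that comparison other than SiO2 day 14 replicate 2 was left out (0.072 to 0.125). An antisense gene, Gm15179, shares 220 exonic bases with Des, 152 of them in the last 300, and the strand setting of the counting is not given in the sources used here, so the value of Des is uncertain to that extent.

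Tagln, an actin-binding protein of early smooth muscle, rose at days 7 and 14 of BLM and was not called at any time of SiO2. It was at 30.6, 32.9 and 27.2 CPM in untreated libraries. In BLM it was at 47.0, 96.9 and 88.1 CPM, 107, 92.6 and 92.0 CPM and 24.4, 24.7 and 30.0 CPM at days 7, 14 and 63. In SiO2 it was at 72.2, 28.7 and 35.9 CPM, 35.7, 24.8 and 33.0 CPM and 40.7, 47.9 and 53.2 CPM. At SiO2 day 7, 1 library stood high and the other two near the untreated range, and at SiO2 day 14 and BLM day 63 the libraries overlapped the untreated ones. Tagln rose at BLM day 7 (1.34 ± 0.24, adjusted p = 5.84e-05) and at BLM day 14 (1.67 ± 0.24, adjusted p = 1.40e-06). Its log2 fold change was 0.58 ± 0.25 at SiO2 day 7 (adjusted p = 0.0547), 0.64 ± 0.25 at SiO2 day 63 (adjusted p = 0.0525) and -0.20 ± 0.26 at BLM day 63 (adjusted p = 0.693), none of them called. The SiO2 day 7 value was 0.08 (adjusted p = 0.809) without SiO2 day 7 replicate 1, the high library, and was called without SiO2 day 7 replicate 2 (0.83, adjusted p = 0.00741) or replicate 3 (0.73, adjusted p = 0.0281), and the SiO2 day 63 value without SiO2 day 63 replicate 1 (0.73, adjusted p = 0.0468). Both were also called without the low-count filter (adjusted p = 0.00104 and 0.000325), and the day 63 value with its groups fitted alone (adjusted p = 0.00157). Pcsk7, on the other strand, shares 108 exonic bases with Tagln, all in the last 300 of the gene. The antisense gene Gm48529 shares 1241, of which 0 are in the last 300 of the gene. Of the 25-base words in the last 300 bases of the coding transcripts of Tagln, 61.1% occur in other genes, mostly Gm48529 and Pcsk7. Pcsk7 itself was 117 ± 6.21 CPM in untreated and 93.5 ± 6.83 CPM in BLM day 14 libraries (SD, n = 3), a log2 fold change of -0.33 ± 0.11 (adjusted p = 0.0187), while Tagln rose there. At BLM day 63 Pcsk7 was 77.9 ± 8.61 CPM (-0.59 ± 0.11, adjusted p = 0.000436), and Tagln was not called. The part of Pcsk7 or Gm48529 reads in the counts of Tagln was not tested.

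Myl9, the regulatory light chain whose phosphorylation starts contraction, was called higher in BLM at day 14 only, and in SiO2 at days 7 and 63. It was at 11.9, 13.1 and 15.0 CPM in untreated libraries. In BLM it was at 5.51, 16.1 and 12.7 CPM, 33.9, 40.3 and 31.5 CPM and 15.4, 17.8 and 16.9 CPM at days 7, 14 and 63. In SiO2 it was at 50.7, 26.8 and 22.8 CPM, 17.2, 18.4 and 24.1 CPM and 22.1, 22.6 and 20.7 CPM. At BLM day 7, when the actins, tropomyosins, Des and Tagln were already up, Myl9 overlapped the untreated libraries. Its log2 fold change was -0.19 ± 0.30 at BLM day 7 (adjusted p = 0.669; 0.15 without BLM day 7 replicate 1), 1.42 ± 0.26 at BLM day 14 (adjusted p = 4.96e-05) and 1.35 ± 0.26 at SiO2 day 7 (adjusted p = 7.20e-05; 0.91, adjusted p = 0.00292, without SiO2 day 7 replicate 1). From BLM day 7 to day 14 it rose by 1.61 ± 0.26 (adjusted p = 7.56e-05; 1.27, adjusted p = 0.0015, without BLM day 7 replicate 1). The rise at SiO2 day 63, 0.73 ± 0.27 (adjusted p = 0.0399), was lost when any of its 6 libraries was left out (adjusted p from 0.0536 to 0.145) and with upper quartile scaling (0.0676). At SiO2 day 14 the value was 0.61 ± 0.27 (adjusted p = 0.106), not called; it was called with the groups fitted alone (0.0406) or without the filter (0.0255).

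Myh11, Cnn1 and Lmod1, genes used to mark mature smooth muscle cells, were counted rarely in every group. Myh11, the smooth muscle myosin heavy chain, had 4 to 32 counts per library and was at 3.89, 2.26 and 1.87 CPM in untreated libraries, 1.41, 2.69 and 1.38 CPM at BLM day 14 and 8.03, 3.99 and 2.78 CPM at SiO2 day 7. All its neighbouring groups overlapped in the order of their means. Groups farther apart in that order could separate, as BLM day 63 (3.34 to 4.48 CPM) lay above BLM day 14 (1.38 to 2.69 CPM). It was called in 0 of 15 comparisons (adjusted p from 0.0759 to 0.996), the lowest being BLM day 63 against day 14 (1.08 ± 0.47), the only 1 with an unadjusted p under 0.05, and DESeq2 and limma-voom also called 0 of 15. At SiO2 day 7 its log2 fold change was 0.82 ± 0.42 (adjusted p = 0.112), with 1.11 (adjusted p = 0.0402) without SiO2 day 7 replicate 3 and 0.27 (adjusted p = 0.672) without SiO2 day 7 replicate 1.

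Lmod1 had 2 to 23 counts per library, with 1.04, 1.51 and 1.87 CPM in untreated, 3.53, 1.49 and 5.53 CPM in BLM day 14 and 4.21, 3.19 and 5.12 CPM in SiO2 day 63 libraries. It passed the test in 1 of 15 comparisons, SiO2 day 63 against untreated (1.55 ± 0.52, adjusted p = 0.0227), and that call was lost without untreated replicate 1 (0.111), untreated replicate 2 (0.0617) or SiO2 day 63 replicate 3 (0.0898). At BLM day 14 it was 1.31 ± 0.55 (adjusted p = 0.0549), and it was called there without BLM day 14 replicate 2 (1.68, adjusted p = 0.0152) or without the low-count filter (1.33, adjusted p = 0.0459). For Lmod1, differences of this size were at the edge of what the depth could show.

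Cnn1, which encodes calponin, had 0 counts among 9898615 in the untreated group, which allows a level of up to 0.303 CPM. It had 3, 2 and 5 counts in the SiO2 day 7 libraries, 2, 0 and 2 in those of BLM day 14 and 2, 1 and 0 in those of BLM day 7, 1 each at BLM day 63 and SiO2 day 63, and 0 at SiO2 day 14. Set against the untreated floor of 3 counts over the group, Cnn1 was at least 2.75-fold higher at SiO2 day 7, with the 10 counts there taken as they stand. The floor covers counting error in the untreated group only, since no molecular identifiers are named in the labels. Cnn1 was too rare for a test between groups.

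**Figure D2:**
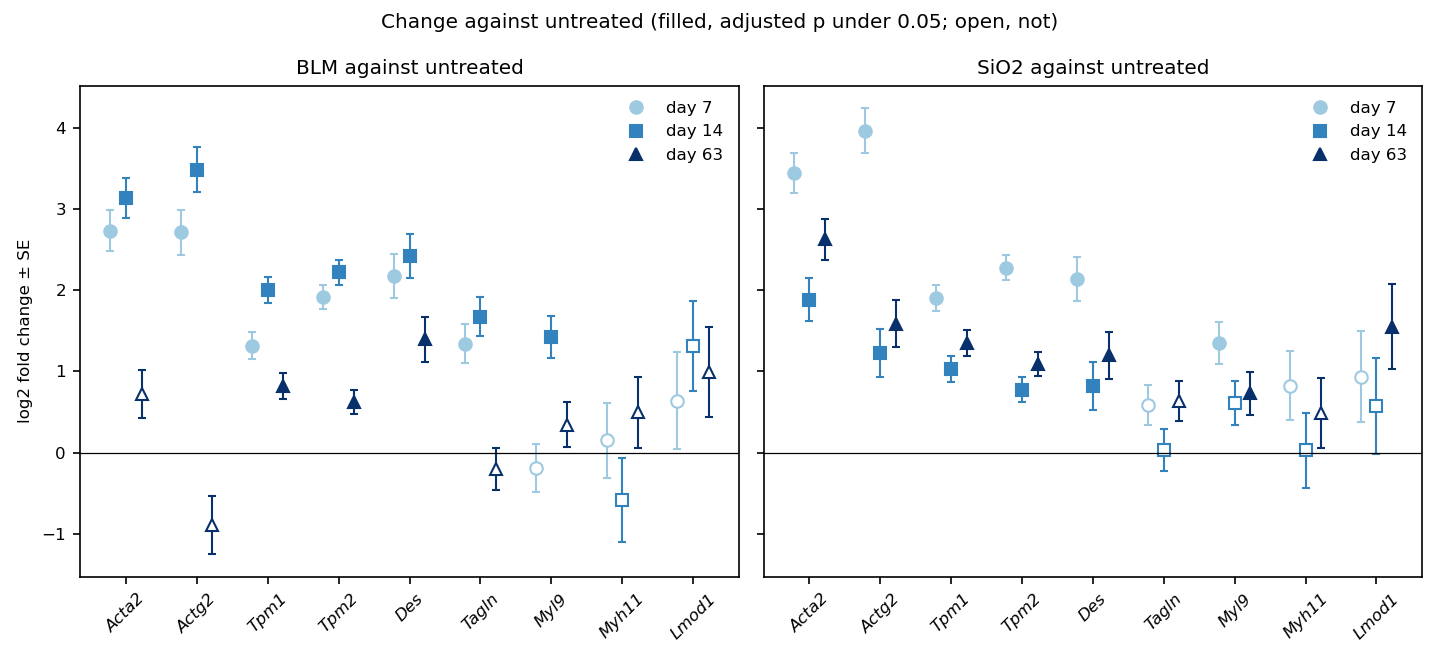
Log2 fold change of the 9 tested genes against the untreated group, with SE as bars, for BLM and SiO2 at days 7, 14 and 63 (filled points have an adjusted p under 0.05). The actins and tropomyosins lie highest at BLM day 14 and SiO2 day 7, and Myh11 is open throughout.

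Counted over the set, BLM raised 6 of the 9 tested members at day 7, 7 at day 14 and 3 at day 63, and lowered none. SiO2 raised 6 at day 7, 5 at day 14 and 7 at day 63, and also lowered none. The share of all 11669 tested genes that was called in either direction was 31.6%, 39.3% and 11.5% at the 3 times of BLM and 44.1%, 24.1% and 27.8% at those of SiO2. Called higher were 16.7%, 20.7% and 6.02% of all genes in BLM and 23.4%, 13.6% and 15.3% in SiO2. The members' share was larger at each of the 6. Because the members were chosen with earlier results of these data known, the larger share describes the list and is not a test of it. The median log2 fold change of the members was 1.34, 2.00 and 0.62 in BLM and 1.90, 0.78 and 1.20 in SiO2, beside 0.01 to 0.04 for all tested genes. Under upper quartile scaling the share of calls that were higher at SiO2 day 14 moved from 56.4% to 44.8% over all genes. At BLM day 63 the 3 members called were Tpm1, Tpm2 and Des, and 5 were called when the low-count filter was dropped or the groups were fitted alone, of which Actg2 was lower. All 6 comparisons use the same 3 untreated libraries.

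Between day 7 and day 14, 3 members rose and none fell in BLM, while 6 fell and none rose in SiO2. The 3 of 9 that rose in BLM, against 10.0% of all genes called and 5.20% called higher, were Myl9, Actg2 (0.77 ± 0.23, adjusted p = 0.0259) and Tpm1 (0.68 ± 0.15, adjusted p = 0.00246). The Actg2 call was lost without BLM day 7 replicate 1 (0.43, adjusted p = 0.22) or BLM day 14 replicate 1 (0.51, adjusted p = 0.218), with DESeq2 (adjusted p = 0.142) and with the groups alone (adjusted p = 0.0511). The 6 of 9 that fell in SiO2, against 23.3% of all genes called and 11.1% called lower, had Actg2 (-2.74 ± 0.24, adjusted p = 8.61e-10), Acta2 (-1.56 ± 0.20, adjusted p = 7.46e-07) and Tpm2 (-1.50 ± 0.15, adjusted p = 6.58e-09) in front. The fall of Myl9 (-0.74 ± 0.24, adjusted p = 0.0212) was lost without SiO2 day 7 replicate 1 (-0.31, adjusted p = 0.368), or without replicate 1 (0.0825) or 2 (0.0721) of SiO2 day 14.

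Between day 14 and day 63, 7 of 9 members fell in BLM, and 8 of 9 were not called in SiO2. The 7 in BLM stood against 32.3% of all genes called and 16.9% called lower. The fall of Actg2 was -4.38 ± 0.29 (adjusted p = 7.80e-13), that of Acta2 -2.42 ± 0.23 (adjusted p = 8.40e-10) and that of Tagln -1.88 ± 0.24 (adjusted p = 2.68e-07), and Des fell least of the 7 (-1.03 ± 0.24, adjusted p = 0.00101). Lmod1 was not called (-0.32 ± 0.47, adjusted p = 0.644), nor was Myh11, whose value was positive (1.08 ± 0.47, adjusted p = 0.0759). In SiO2 only Acta2 was called among the 9, against 3.52% of all genes called and 1.53% called higher, and it rose (0.74 ± 0.21, adjusted p = 0.0390). That call was lost when any library of the comparison other than SiO2 day 14 replicate 1 was left out (log2 fold change 0.51 to 0.79, adjusted p from 0.068 to 0.239), although the 3 day 63 libraries all lay above the 3 of day 14.

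**Figure D3:**
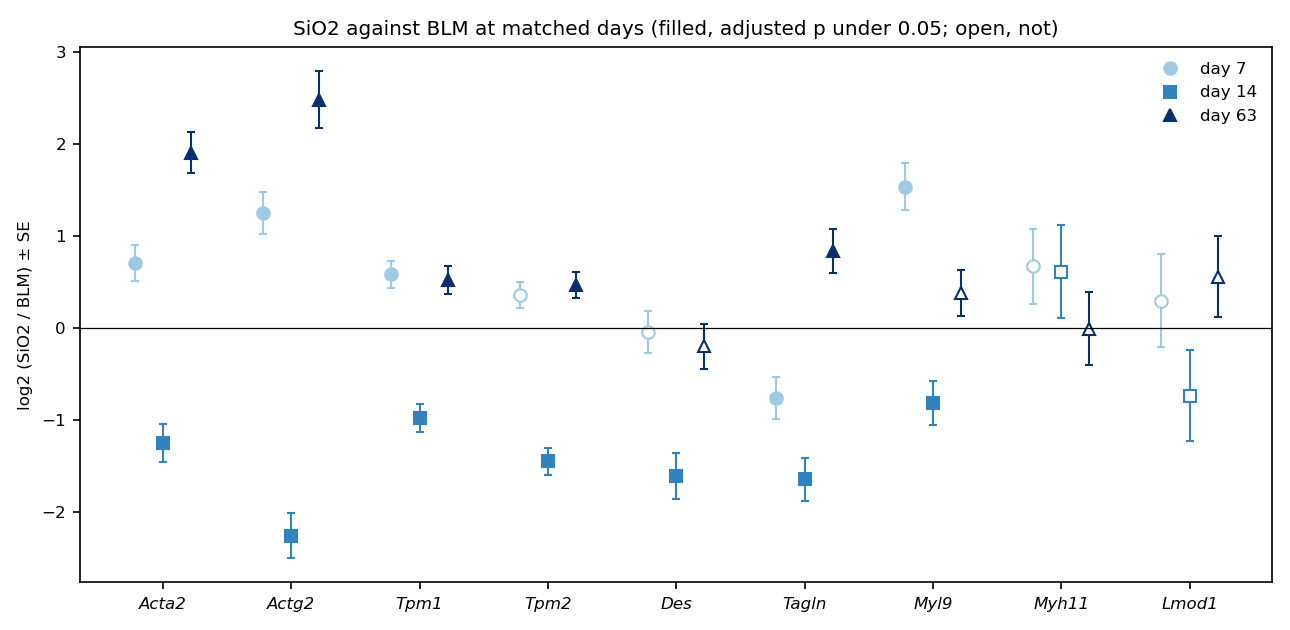
Log2 ratio of SiO2 to BLM at matched days for the 9 tested genes, with SE as bars (filled points have an adjusted p under 0.05). At day 14 the 7 filled points lie below 0, and at day 63 the 5 filled points lie above it.

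Set against each other at matched days, most called members were higher in SiO2 at day 7, in BLM at day 14 and in SiO2 at day 63; the doses differ in substance and amount, so these are differences between the groups as given. At day 7, 4 members were higher in SiO2 and 1 lower, against 10.4% of all genes called, 5.29% higher and 5.10% lower. Higher were Myl9 (1.54 ± 0.26, adjusted p = 8.84e-05), Actg2 (1.25 ± 0.22, adjusted p = 0.000209), Acta2 (0.71 ± 0.19, adjusted p = 0.0130) and Tpm1 (0.58 ± 0.15, adjusted p = 0.00847). Lower was Tagln (-0.76 ± 0.23, adjusted p = 0.0266), so that at this time transgelin and the actins differed between the models in opposite directions, the Tagln call being the less stable. Acta2 was not called without BLM day 7 replicate 1 (0.45, adjusted p = 0.15) or SiO2 day 7 replicate 1 (0.63, adjusted p = 0.06), and Tpm1 not without the same libraries (0.43, adjusted p = 0.0973, and 0.39, adjusted p = 0.114). Myl9 and Actg2 stayed called without BLM day 7 replicate 1 (1.19 and 0.92) and without SiO2 day 7 replicate 1 (1.09 and 0.99), and Tagln was -1.03 and -1.27 without them, called in both. Tagln was not called without replicate 2 or 3 of either group (-0.67 to -0.52, adjusted p from 0.111 to 0.197), with DESeq2 (0.0947) or with the groups alone (0.0978). Tpm2 did not pass (0.36 ± 0.14, adjusted p = 0.116), and did without BLM day 7 replicate 2 (0.53, adjusted p = 0.0237) or without the filter (0.0305).

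At day 14, 7 of 9 members were lower in SiO2 and none higher, against 17.1% of all genes called in either direction and 8.03% called lower. The differences were -2.25 ± 0.25 for Actg2, -1.64 ± 0.24 for Tagln, -1.60 ± 0.25 for Des, -1.45 ± 0.15 for Tpm2, -1.25 ± 0.21 for Acta2 and -0.98 ± 0.15 for Tpm1 (adjusted p from 4.63e-08 to 1.61e-05). The libraries of the models did not overlap for any of the 7, a separation that 15.6% of all genes showed in this direction. The weakest, Myl9 (-0.82 ± 0.24, adjusted p = 0.0158), was lost without BLM day 14 replicate 2 (0.0765) or without SiO2 day 14 replicate 1 (0.0678) or 2 (0.0568).

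At day 63, 5 of 9 members were higher in SiO2 and none lower, against 15.6% of all genes called in either direction and 9.13% called higher. The smooth muscle actins differed most, Actg2 by 2.48 ± 0.31 (adjusted p = 3.75e-07) and Acta2 by 1.91 ± 0.23 (adjusted p = 1.90e-07). Tagln (0.84 ± 0.24, adjusted p = 0.0158), Tpm1 (0.53 ± 0.15, adjusted p = 0.0156) and Tpm2 (0.47 ± 0.15, adjusted p = 0.0257) differed by less. Leaving out 1 library ended the calls of Tagln (without SiO2 day 63 replicate 3 or BLM day 63 replicate 1 or 2, adjusted p from 0.0582 to 0.0794), Tpm1 (without SiO2 day 63 replicate 3 or BLM day 63 replicate 1, 0.051 and 0.115) and Tpm2 (without replicate 2 or 3 of SiO2 or 1 or 2 of BLM, 0.073 to 0.11). The calls of both actins held under every alternative and every library left out.

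The change over time was also compared between the models in 1 test. From day 7 to day 14, 6 of 9 members had a change in SiO2 that was lower than that in BLM (19.2% of all genes were called, 9.47% lower), led by Actg2 (-3.50 ± 0.33, adjusted p = 5.07e-09) and Myl9 (-2.35 ± 0.35, adjusted p = 1.06e-05). Tagln stood at -0.88 ± 0.33 (adjusted p = 0.0554), and was called without BLM day 7 replicate 2 (-1.09, 0.0224) or SiO2 day 7 replicate 2 (-1.13, 0.0111) or 3 (-1.03, 0.0339), and without the filter (-0.86, 0.00062). It was -0.61 (adjusted p = 0.181) without BLM day 7 replicate 1 and -0.37 (adjusted p = 0.401) without SiO2 day 7 replicate 1. From day 14 to day 63, 7 of 9 members had a change in SiO2 above that in BLM (18.5% of all genes were called, 9.70% higher), led by Actg2 (4.74 ± 0.39, adjusted p = 2.88e-10), Acta2 (3.16 ± 0.31, adjusted p = 5.67e-09) and Tagln (2.48 ± 0.34, adjusted p = 2.12e-06). Myh11 and Lmod1 were the members without a call in either.

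**Figure D4:**
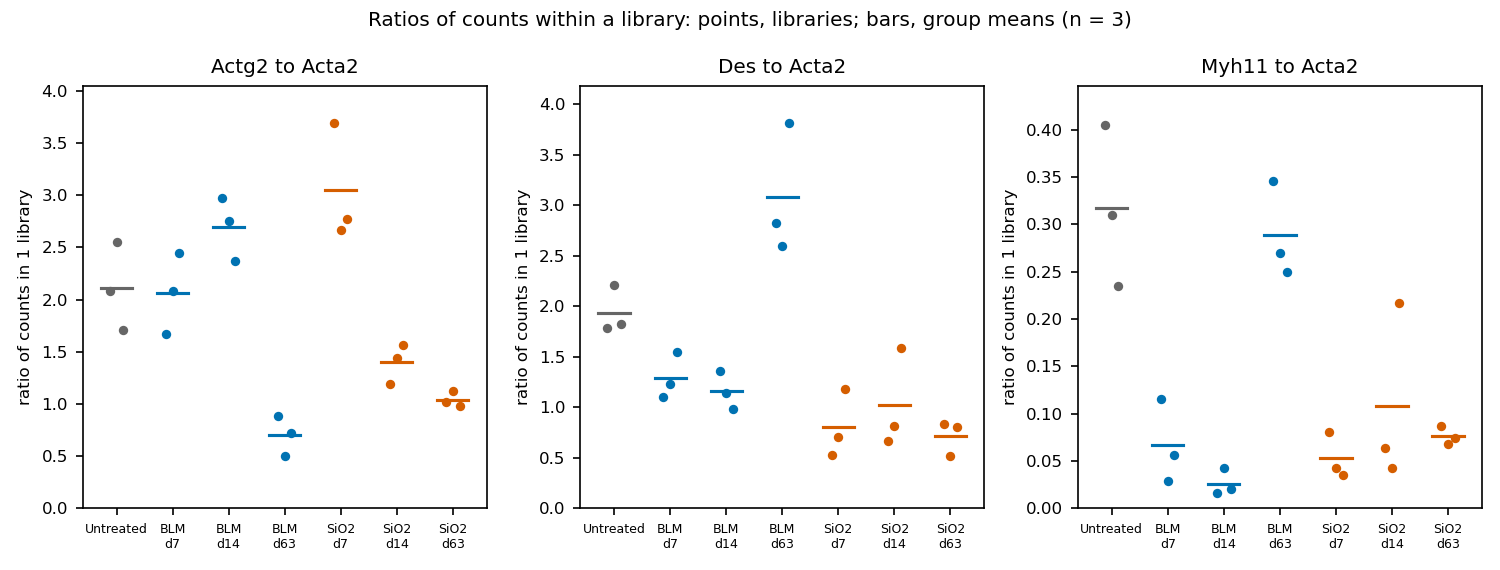
Ratios of counts within a library for Actg2, Des and Myh11 to Acta2; points are libraries and bars are group means (n = 3), with each axis starting at 0. The Actg2 to Acta2 ratio is highest at SiO2 day 7 and lowest at BLM day 63, where Des to Acta2 is highest.

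The members were also set against each other within a library, which takes out its depth. Within a library, the ratio of Actg2 to Acta2 counts was 2.11 ± 0.424 (SD, n = 3) in untreated, 3.04 ± 0.564 at SiO2 day 7 and 2.70 ± 0.309 at BLM day 14. It was 1.04 ± 0.0738 at SiO2 day 63 and 0.700 ± 0.193 at BLM day 63. Both day 63 groups lay below all untreated libraries in this ratio, and so did SiO2 day 14 (1.40 ± 0.191). The ratio of Des to Acta2 was 1.94 ± 0.234 in untreated, 3.08 ± 0.648 at BLM day 63 and 0.720 ± 0.172 at SiO2 day 63, with no overlap between the 3 groups. The ratio of Myh11 to Acta2 was 0.317 ± 0.0853 in untreated and 0.288 ± 0.0509 at BLM day 63, which overlapped. It was 0.0261 ± 0.0141 at BLM day 14 and 0.0761 ± 0.00972 at SiO2 day 63. These ratios are a description and were given no test; ratios between genes without length correction are read only as differences between groups.

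Among the members, Tpm2 and Des had the most alike courses over the 7 group means (root mean square difference of the centred log2 levels 0.267), followed by Tpm1 and Tpm2 (0.307). Acta2 and Actg2 were farther apart (0.705), and Actg2 and Myh11 farthest (1.71). By the same measure over all genes that reached 10 CPM in some group, the genes most like Acta2 were Ahr (0.204), the aryl hydrocarbon receptor, P4ha3 (0.304), a collagen prolyl hydroxylase subunit, Fkbp5 (0.31), Nrep (0.332) and Specc1 (0.347). Those most like Tagln were Fmnl3 (0.243), Gper1 (0.25), Kctd12 (0.253), Fzd1 (0.255) and Isyna1 (0.275). The measure describes 7 means that share libraries and depth, and has no test.

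Other parts of the contractile machinery did not move as a block with the members. A list of 26 further genes (thin filament proteins, myosin light chain kinase and phosphatase, SRF and its partners) had 23 tested. In BLM, 8 rose and 4 fell at day 7, 8 rose and 6 fell at day 14, and 2 rose and 1 fell at day 63. In SiO2, 9 rose and 7 fell at day 7, 4 rose and 3 fell at day 14, and 5 rose and 6 fell at day 63. Of all 11669 tested genes, 31.6%, 39.3% and 11.5% were called at these times of BLM, with 16.7%, 20.7% and 6.02% higher. For SiO2 the shares were 44.1%, 24.1% and 27.8%, with 23.4%, 13.6% and 15.3% higher. Their median log2 fold change against untreated lay between -0.06 and 0.23, beside 0.62 to 2.00 for the members. Cald1, the actin-binding caldesmon, was higher in all 6 treated groups, from 176 ± 16.4 CPM in untreated to 420 ± 11.4 CPM at BLM day 14 (1.26 ± 0.11, adjusted p = 1.68e-10). Tpm4, a tropomyosin of non-muscle cells, was higher at BLM day 7 (0.94 ± 0.09, adjusted p = 1.04e-09) and SiO2 day 7 (0.97 ± 0.09, adjusted p = 1.51e-10). It was higher at BLM day 14 by a like amount (0.94 ± 0.09, adjusted p = 4.51e-10) and at BLM day 63 by less (0.28 ± 0.09, adjusted p = 0.0324). Tpm4 was also called higher at SiO2 day 63 and was not called at SiO2 day 14. Ppp1r14a, which inhibits myosin light chain phosphatase and so favours contraction, was lower in all 6, from 97.4 ± 21.8 CPM in untreated to 17.5 ± 0.742 CPM at BLM day 14 (-2.49 ± 0.21, adjusted p = 7.78e-11) and 29.7 ± 2.53 CPM at SiO2 day 63 (-1.73 ± 0.19, adjusted p = 3.32e-08). Srf was lower at BLM day 7 (-0.59 ± 0.19, adjusted p = 0.0183) and BLM day 14 (-0.97 ± 0.20, adjusted p = 0.000219) and was not called in the other 4 groups; Srf was named after its values were seen.

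Markers of mural cells moved in part with the members. Of a list of 9 genes of pericytes and vascular smooth muscle, chosen with earlier results known, 6 were tested. Together the 9 summed to 90.4 to 119 CPM in untreated, 151 to 198 CPM in BLM day 14, 213 to 230 CPM in SiO2 day 7, 161 to 197 CPM in BLM day 63 and 252 to 273 CPM in SiO2 day 63 libraries. At BLM day 7 the sum was 120 to 139 CPM and at SiO2 day 14 it was 200 to 276 CPM. From SiO2 day 7 to day 14, where 6 members fell, Pdgfrb, Cspg4 and Notch3 of this list fell too and Abcc9 rose, from 56.6 ± 11.6 CPM to 111 ± 12.1 CPM (0.97 ± 0.14, adjusted p = 3.46e-06). Of the 6, 3 rose and 1 fell at BLM day 14, 5 rose at SiO2 day 7, and 5 rose and 1 fell at SiO2 day 63. Among all tested genes, 39.3%, 44.1% and 27.8% were called in these comparisons, with 20.7%, 23.4% and 15.3% higher. Notch3, a receptor of mural cells named after its values were seen, was 1.13 ± 0.814 CPM in untreated, 8.15 ± 2.72 CPM at BLM day 14, 10.6 ± 1.28 CPM at SiO2 day 7, 2.17 ± 0.594 CPM at BLM day 63 and 11.4 ± 1.53 CPM at SiO2 day 63 (SD, n = 3). At BLM day 7 it was 4.51 ± 1.43 CPM and at SiO2 day 14 it was 5.19 ± 2.01 CPM. Pdgfrb and Cspg4 were called higher with Notch3 at BLM day 14 and at SiO2 days 7 and 63. Kcnj8 was 29.4 ± 3.72 CPM in untreated, 30.7 ± 8.54 CPM at BLM day 14 and 71.9 ± 18.6 CPM at SiO2 day 14. Ndufa4l2 was called lower at SiO2 day 63, with 2.21 ± 0.756 CPM against 5.11 ± 1.99 CPM in untreated. Kcnj8 and Ndufa4l2 were also named after their values were seen. Rgs5, a defining pericyte gene, had no count in untreated libraries and at most 1.51 CPM in any other. It had 13 counts at SiO2 day 7, 5 at BLM day 14, 4 at SiO2 day 14 and 1 to 3 in the other treated groups. Mcam stayed within the sum of at most 2.01 CPM given above. Its counts were 9 at SiO2 day 7, 6 at BLM day 7, 4 at BLM day 14 and 3 at SiO2 day 63. Neither gene had enough counts to be tested. The summed markers of airway smooth muscle and alveolar myofibroblasts, 4 genes, were 114 to 161 CPM in untreated libraries. In BLM they were 100 to 137 CPM at day 7, 79.1 to 107 CPM at day 14 and 136 to 175 CPM at day 63. In SiO2 they were 61 to 104 CPM, 104 to 145 CPM and 155 to 190 CPM at the same days. Hhip, Fgf18 and Aspn were called lower at SiO2 day 7, where 44.1% of all genes were called and 23.4% called higher. Aspn was called lower at BLM day 7. At BLM day 14 Hhip was called lower and Lgr6 higher. No gene of this list was called against untreated in the remaining groups. The 5 mesothelial markers summed to 511 to 629 CPM in untreated and to 124 to 176 CPM in SiO2 day 7 libraries. They summed to 385 to 498 CPM at SiO2 day 14 and to 220.5 to 248.8 CPM at SiO2 day 63. Sums in BLM were 263 to 364 CPM at day 7, 379 to 436 CPM at day 14 and 352 to 427 CPM at day 63. Every treated library lay below the untreated ones in this sum.

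Single genes of the depleted lineages also moved. Of the 5 endothelial markers, 2 were tested. The list summed to 3.52 to 8.43 CPM in untreated, 10.5 to 18.8 CPM in BLM day 14, 3.56 to 5.74 CPM in BLM day 63 and 8.68 to 11.3 CPM in SiO2 day 63 libraries. Plvap, an endothelial membrane protein named after its values were seen, was 0.839 ± 0.42 CPM in untreated, 11.9 ± 2.88 CPM at BLM day 14, 3.58 ± 0.617 CPM at SiO2 day 14, 2.08 ± 0.136 CPM at BLM day 63 and 6.82 ± 1.51 CPM at SiO2 day 63 (SD, n = 3). Its difference between SiO2 and BLM had the sign of the actins' at day 14 (-1.73 ± 0.30, adjusted p = 6.93e-05) and at day 63 (1.68 ± 0.34, adjusted p = 0.00061), and the opposite sign at day 7 (-1.61 ± 0.32, adjusted p = 0.000578). Kdr, the other tested marker, was 5.23 ± 2.52 CPM in untreated, 3.22 ± 1.45 CPM at BLM day 14 and 1.91 ± 1.35 CPM at SiO2 day 7. Against untreated, Kdr was called only at SiO2 day 7, where it was lower and Plvap was higher. Between the models Kdr was called only at day 7, lower in SiO2. The defining endothelial genes Cdh5 and Vwf had no count in the untreated and BLM day 14 groups and at most 3 in any group. Of the 5 myeloid markers only Tyrobp was tested. The list summed to 3.11 to 6.53 CPM in untreated, 9.54 to 14.3 CPM in BLM day 14, 17.7 to 31.2 CPM in SiO2 day 14, 2.67 to 5.45 CPM in BLM day 63 and 18.1 to 22.6 CPM in SiO2 day 63 libraries. Tyrobp, a signalling adaptor of myeloid cells, was higher in SiO2 than in BLM at day 63 (2.50 ± 0.31, adjusted p = 3.69e-07), as the actins were, and also at day 14 (1.09 ± 0.26, adjusted p = 0.00296), where the actins were lower. Of the 5 epithelial markers 2 were tested, Sftpb and Sftpc, and both were called higher than untreated at day 7 of BLM and of SiO2 and at no other time. These 5 summed to 5.53 to 7.96 CPM in untreated, 23.5 to 27.0 CPM in BLM day 7 and 18.5 to 25.8 CPM in SiO2 day 7 libraries. The part of any of these cells in the members' changes was not tested.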

How the data were processed

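Polyadenylated RNA of sorted lung fibroblasts was measured by 3′SAGE-seq on an Ion Proton in 21 libraries. The authors deposited whole-number counts per gene symbol, 1 table per library; Bowtie2 2.2.5 and mm10 are named in the submitters' processing notes, while the annotation, the counting program and its strand setting are not given in the sources used here. Samples were grouped by title, and no sequencing batch or date is given. Genes were filtered with filterByExpr (11669 kept, 99.68% of counts), scaled by TMM and tested with edgeR 4.0.16 (R 4.3.3) by its quasi-likelihood test, with 7 groups as 1 factor, 14 residual degrees of freedom and Benjamini-Hochberg adjustment over all tested genes; an adjusted p under 0.05 was called. Fold changes are edgeR's log2 values ± standard error. The standard error was derived as the size of the unshrunken log2 fold change divided by the square root of the test's F statistic. The script was tested on simulated data. Alternatives were DESeq2 size factors, upper quartile scaling, no filter, DESeq2 1.42.0, limma-voom (limma 3.58.1), the groups of a comparison alone, a replicate block, and each library left out. Sums, ratios and course likeness (pseudocount 0.5 CPM) were computed in Python 3.11.15. CArG boxes were searched in RefSeq promoter windows (GRCm38.p6). The members and gene lists were chosen with earlier results of these data known. By the naming rule, the text names all 10 members, up to 4 further contractile genes per comparison with the smallest adjusted p, and the 5 genes whose course was most like that of Acta2, Tagln and Myh11. No 2 libraries were identical.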

Additional observations from a re-analysis of the deposited data

Results flagged for a closer look

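The change from day 7 to day 14 differed between SiO2 and BLM for 6 members, by a test of the difference itself (edgeR quasi-likelihood test, interaction of model and time, adjusted over 11669 genes). As SiO2 minus BLM on the log2 scale, it was -3.50 for Actg2, -2.35 for Myl9, -1.96 for Acta2, -1.81 for Tpm2, -1.56 for Tpm1 and -1.56 for Des.

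The change from day 14 to day 63 differed between the models in the other direction for 7 members, by the same test. It was 4.74 for Actg2, 3.16 for Acta2, 2.48 for Tagln, 1.92 for Tpm2, 1.5 for Tpm1, 1.41 for Des and 1.20 for Myl9. Both tests use the day 14 libraries, so they are not independent of each other.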

How the results depend on the processing

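Of 135 tested member values, 81 were called. All 81 kept their direction under each scaling, filter and tool, and all stayed called with DESeq2 size factors and without the low-count filter; 78 did with upper quartile scaling, 77 with DESeq2, 80 with limma-voom and 79 with the groups alone. Over the fits that left out 1 library each, the called values stayed called in 520 and were lost in 44. The number of members called moved from 3 to 5 at BLM day 63 against untreated, and from 1 to 2 at SiO2 day 63 against day 14, both without the filter and with the groups alone. With 1 library left out it ranged from 3 to 5 for SiO2 against BLM at day 7, from 2 to 5 at day 63, from 2 to 5 for BLM day 14 against day 7, and from 0 to 1 for SiO2 day 63 against day 14. For SiO2 against untreated, the number was 6 to 8 at day 7, 4 to 5 at day 14 and 5 to 7 at day 63 with 1 library left out. Under the other alternatives it was 6 to 8, 4 to 6 and 6 to 8 at these days. The log2 fold change of Myl9 at BLM day 7 against untreated, -0.19, ranged from -0.54 to 0.15 and changed sign without BLM day 7 replicate 1. Over all genes, the calls at BLM day 63 against untreated went from 1343 to 796 (untreated replicate 1 left out) and 827 (BLM day 63 replicate 3 left out), those of BLM day 14 against day 7 from 1169 to 658 without BLM day 7 replicate 1, and those of SiO2 day 63 against day 14 from 411 to between 197 and 268 without SiO2 day 14 replicate 3 or any SiO2 day 63 library. The causes were not tested. The replicate numbers did not pair the libraries: 0 of 63 same-number pairs had correlated deviations over 0.1 (median r -0.000379), and 4 of 21 libraries were closest to their own number. The replicate block left all 81 calls in place. Depth limits Cnn1, Lmod1 and Myh11, with at most 32 counts per library.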

Other observations

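Synpo2, an actin-bundling protein of muscle and 1 of the 26 further contractile genes, followed a course of its own. It was 7.93 ± 0.887 CPM in untreated, 3.59 ± 1.62 CPM at BLM day 14, 15.4 ± 6.39 CPM at SiO2 day 14 and 29.4 ± 4.02 CPM at SiO2 day 63 (SD, n = 3). At day 63 it was higher in SiO2 than in BLM by 1.80 ± 0.26 on the log2 scale (edgeR adjusted p = 6.97e-06), and no SiO2 library overlapped a BLM one. Fhl2, a partner of SRF, was 0.571 ± 0.501 CPM in untreated, 7.58 ± 1.34 CPM at SiO2 day 7 and 9.78 ± 1.63 CPM at BLM day 14. Myocd, which encodes myocardin, had 0 counts in the untreated group and 24 at SiO2 day 7, where, with the 24 taken as they stand, it was at least 6.61-fold higher than the untreated floor of 3 counts over the group; it had 3 to 6 counts in each of the other 5 groups, and was named after its values were seen.

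The genes whose course over the 7 groups was most like that of Myh11 were Mtf2 (0.157), Pitrm1 (0.174), Ptges (0.186), Slfn9 (0.197) and Tnfaip2 (0.20), as root mean square differences of the centred log2 levels. Of the remaining marker lists, that of cardiac muscle summed to at most 5.28 CPM in any library and that of skeletal muscle to at most 4.42 CPM.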
